A study of Mus musculus with 4 samples.

Results

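The sense cytosines of the mitochondrial messenger RNAs were taken from a table of cytosine positions on mouse mitochondrial DNA (mtDNA). They were the listed positions on the coding strand of 11 mRNA regions: the plus strand of ND1, ND2, COX1, COX2, ATP8/ATP6, COX3, ND3, ND4L/ND4, ND5 and CYTB, and the minus strand of ND6. The rule used position and strand alone and gave 2850 of the 5988 positions in the table. The 4 libraries came from 2 samples labelled NSUN2-/-, from mice lacking the RNA cytosine methyltransferase Nsun2 (here knockout replicates 1 and 2), and 2 samples labelled wild type (wild type replicates 1 and 2). All 4 were liver RNA from material enriched for mitochondria, and all went through removal of ribosomal RNA, DNase, bisulfite and a small RNA library kit. The sources used here do not give age, sex, strain or how the Nsun2 allele was built. No label says that replicates are separate animals, so p-values of tests over libraries measure only the spread between these libraries, which may be technical. The table covers mtDNA alone, so neither the nuclear gene Nsun2 nor liver markers could be checked in it.

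The proteins encoded by mitochondrial DNA are core subunits of the respiratory chain and ATP synthase. Its RNA is made as long transcripts from each strand, and most mRNAs are released where the tRNAs that flank them are cut out. ND4L with ND4 and ATP8 with ATP6 stay joined as bicistronic mRNAs. Bisulfite converts cytosine to uracil but leaves 5-methylcytosine (m5C) as cytosine. A read that keeps a cytosine is here called unconverted, and the level is unconverted calls over all calls at a position, in percent. An unconverted call can be m5C or a cytosine that escaped conversion, and these cannot be told apart in the table. NSUN2 is known for m5C in tRNAs, and the series title names mitochondrial tRNAs. The mRNAs were sequenced in the same libraries.

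The mRNA cytosines held 30685 and 14505 calls in knockout replicates 1 and 2, and 18855 and 13155 calls in wild type replicates 1 and 2. A read gives a call at each cytosine it covers, so calls are not independent molecules. Knockout replicate 2 stood apart, because the small ribosomal RNA (mt-Rnr1) took 93.8% of all its calls, against 39.9% to 50.1% in the other 3 libraries. The mRNAs therefore made up 30.9% and 3.20% of all calls in the knockout replicates and 20.96% and 28.9% in the wild type replicates. Of the calls outside mt-Rnr1 the mRNAs took 51.3% and 51.4% in the knockout replicates, and 42.0% and 53.4% in the wild type replicates. Intervals are exact (Clopper-Pearson) 95% intervals of calls, and they and the limits for a count of 0 (3 counts) cover counting error only.

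Reads lay on few of these cytosines. Of the 2850, 1891 had no read in any library, 959 had a read in at least 1 library and 262 had a read in every library. The share of the mRNA cytosines with a read was 25.5% and 11.7% in the knockout replicates and 23.8% and 19.9% in the wild type replicates. COX1, the catalytic subunit of cytochrome c oxidase (complex IV), and ND4L/ND4, subunits of NADH dehydrogenase (complex I), together took 94.9% and 97.0% of the mRNA calls in the knockout replicates and 93.4% and 94.8% in the wild type replicates. The same pair of regions led in all 4 libraries.

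Depth per cytosine, which allows regions of different length to be compared, separated these regions from all others. COX1 averaged 38.8 and 8.74 reads per listed cytosine in knockout replicates 1 and 2, and 23.9 and 14.4 in wild type replicates 1 and 2. ND4L/ND4 averaged 33.5 and 24.5 reads in the knockout replicates and 19.96 and 16.2 in the wild type replicates. In knockout replicate 2 ND4L/ND4 was the deeper of the pair by a wide margin, with 74.9% of the mRNA calls against 22.1% in COX1, while in knockout replicate 1 the shares were 48.5% and 46.4%. The other complex IV subunits were shallow. COX2, which carries the copper centre that receives electrons from cytochrome c, had 0.503 and 0.272 reads per cytosine in the knockout replicates and 0.509 and 0.145 in the wild type replicates. COX3, a structural subunit, had 0.706 and 0.487 reads in the knockout replicates and 1.16 and 0.411 in the wild type replicates. For these subunits the groups overlapped.

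Within complex I the range was wider still. ND1, which forms part of the ubiquinone site, had 1.88 and 0.241 reads per cytosine in the knockout replicates and 1.05 and 0.530 in the wild type replicates. ND6, the only protein encoded on the other strand, had 31 listed cytosines, with 2.81 and 1.23 reads each in the knockout replicates and 1.00 and 0.645 in the wild type replicates. The proton-pumping subunits ND2 and ND5 were almost unread: ND2 had at most 0.0833 reads per cytosine in any library and ND5 at most 0.271. ND3 had 3 calls in all, each in wild type replicate 2, so a level could not be measured there. CYTB, the cytochrome b of complex III, had 1.75 and 0.344 reads per cytosine in the knockout replicates and 1.14 and 0.867 in the wild type replicates. ATP8/ATP6, the ATP synthase subunits (complex V), had 0.471 and 0.131 reads in the knockout replicates and 0.661 and 0.362 in the wild type replicates. By complex, complex I took 50.8% and 76.0% of the mRNA calls in the knockout replicates and 49.2% and 56.4% in the wild type replicates, and complex IV took 47.1% and 23.1% in the knockout replicates and 48.1% and 41.0% in the wild type replicates.

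**Figure D1:**
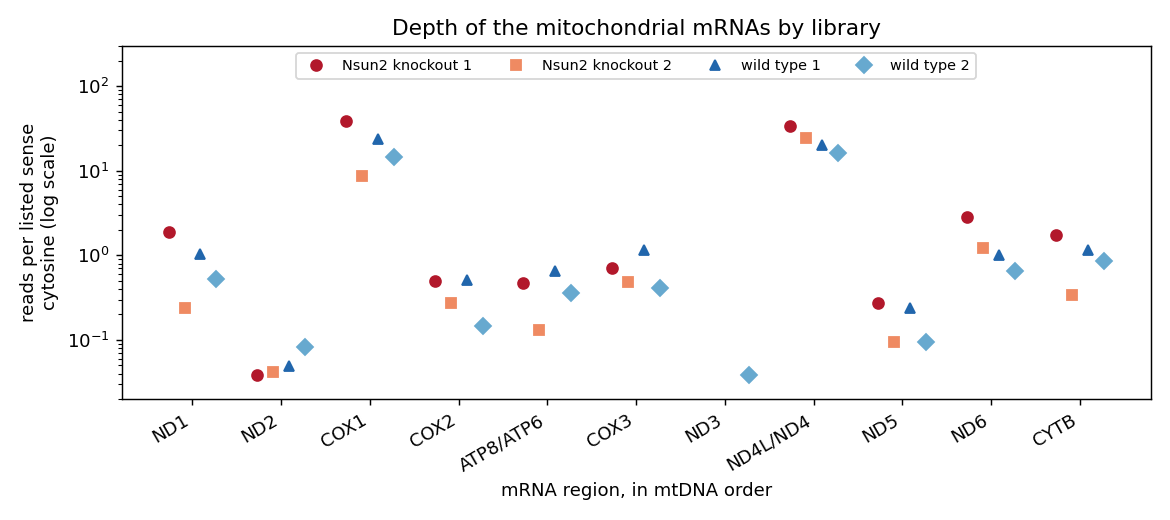
Mean reads per listed sense cytosine (log scale) for each mRNA region in mtDNA order, 1 point per library. COX1 and ND4L/ND4 lie above 8 reads in every library, and all other regions lie below 3; ND3 has no point for the libraries in which it had 0 reads.

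Depth per mRNA was then compared between knockout and wild type. The libraries were made with a small RNA kit, and whether this depth follows the amount of mRNA was not tested. No mRNA differed detectably with edgeR's quasi-likelihood test on summed sense calls (26 genes tested, 10 of them mRNA regions): 0 of 10 were lower and 0 of 10 higher at an adjusted p under 0.05, against 0% of all genes tested in each direction. None of the 10 had an unadjusted p under 0.05. DESeq2 also called 0 of the 10, against 1 of all 26 genes, the tRNA gene TrnH, which was lower. ND3 did not pass the filter of 10 calls in 2 libraries. ND6 came nearest. It took 0.284% and 0.262% of the mRNA calls in the knockout replicates and 0.164% and 0.152% in the wild type replicates, and the groups did not overlap (two-sided exact permutation p = 0.333, the least that 2 against 2 libraries can give). Of all calls in the library ND6 took 0.0875% and 0.00838% in the knockout replicates and 0.0345% and 0.0440% in the wild type replicates, and on that scale the groups overlapped. Its log2 fold change was 1.73 (knockout over wild type, edgeR adjusted p = 0.822). The fold rests on 87, 38, 31 and 20 calls, in the order knockout replicates 1 and 2 and wild type replicates 1 and 2. Of these, 32, 31, 19 and 15 were at 1 cytosine, position 13722, so the fold mainly describes that position. Without knockout replicate 1 the log2 fold change of ND6 was 2.10, in a fit where 1 library stood for the knockout. In that library, knockout replicate 2, mt-Rnr1 took 93.8% of all calls. The median log2 fold change was 0.47 over the 10 mRNAs and 0.21 over all 26 genes. With scaling by library total alone these medians were -0.68 and -0.83, so the sign of both medians depends on the scaling, while the mRNA median lay above that of all genes under each. Without knockout replicate 2 the median log2 fold change over the 10 mRNAs was 0.26. In bulk RNA, fewer cells and less RNA per cell cannot be told apart. ATP8/ATP6 ran the other way as a share of mRNA calls, with 0.339% and 0.200% in the knockout replicates and 0.774% and 0.608% in the wild type replicates (log2 fold change -0.48, edgeR adjusted p = 0.888). CYTB was also lower as a share of mRNA calls, with 1.75% and 0.731% in the knockout replicates and 1.87% and 2.03% in the wild type replicates, a difference of -0.706 points (two-sided exact permutation p = 0.333), while its log2 fold change was 0.07 (edgeR adjusted p = 0.933). Of the 11 regions, only ND6, ATP8/ATP6 and CYTB had shares that did not overlap. With 2 against 2 libraries, a region without any difference shows no overlap with probability 0.333. Shares of the mRNA calls also depend on one another, and ND4L/ND4 took 74.9% of them in knockout replicate 2. ND4L/ND4 had a log2 fold change of 1.28 (edgeR adjusted p = 0.881) and COX1 one of 0.47 (edgeR adjusted p = 0.888).

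In COX1 and ND4L/ND4 most reads stood in short blocks, several of which had 3′ borders shared by all libraries. A block was counted as at least 5 successive listed cytosines, each with 10 or more reads in both genotypes when replicates were summed. There were 10 such blocks, with 173 of the 175 cytosines that passed this depth, and they held 94.4% and 97.2% of the mRNA calls in the knockout replicates and 91.1% and 93.8% in the wild type replicates. COX1 had 6 blocks, ND4L/ND4 had 2, and ND1 and CYTB had 1 each, while the other 7 regions had none. The ND1 block held 66.8% and 81.7% of the ND1 calls in the knockout replicates and 73.2% and 66.7% in the wild type replicates. The CYTB block held 46.1% and 19.8% of the CYTB calls in the knockout replicates and 19.6% and 19.5% in the wild type replicates. The remaining 2 cytosines that passed were in COX1 and ND6.

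The deepest block lay within ND4L, from position 10053 to 10127 (nucleotides 177 to 251 of the region), and spanned 75 nt with 23 cytosines. It held 98.9% and 98.5% of the ND4L/ND4 calls in the knockout replicates and 95.8% and 97.9% in the wild type replicates. Its most read cytosine, position 10099, had 998 and 1020 reads in knockout replicates 1 and 2 and 561 and 466 in wild type replicates 1 and 2. Depth climbed in several steps on its 5′ side and ended on its 3′ side between 1 pair of listed cytosines. At position 10127 there were 997 and 1019 reads in the knockout replicates and 559 and 465 in the wild type replicates, and at position 10131, 4 nt on, there were 0 and 0 in the knockout replicates and 1 and 0 in the wild type replicates. The opposite strand had 0 reads over this block in every library.

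The 5′ side of the ND4L block differed in knockout replicate 2. Between positions 10088 and 10091 its reads increased 3.33-fold, to 1011 at the second position against 304 at the first. In knockout replicate 1 there were 937 reads at 10088 and 991 at 10091, in wild type replicate 1 523 and 553, and in wild type replicate 2 436 and 461, each a 1.06-fold step. This step was named after its values were seen. It separated knockout replicate 2 from knockout replicate 1 as well as from the wild type, and so is no difference between genotypes.

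COX1 was read mainly in the 5′ and middle parts of the gene. The block with the most calls ran from position 5926 to 6073 (nucleotides 599 to 746, 44 cytosines) and held 54.8% and 86.7% of the COX1 calls in the knockout replicates and 47.9% and 53.8% in the wild type replicates. Position 6045, its most read cytosine, had 415 and 158 reads in the knockout replicates and 203 and 132 in the wild type replicates. The 3′ border was again shared. At 6073 there were 396 and 158 reads in the knockout replicates and 196 and 125 in the wild type replicates, and at 6091, the next listed cytosine, 4 and 0 in the knockout replicates and 5 and 2 in the wild type replicates.

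A second COX1 block, from 5671 to 5785, had a border between adjacent nucleotides. Position 5725 had 249 and 13 reads in the knockout replicates and 177 and 84 in the wild type replicates, and position 5726 had 13 and 1 reads in the knockout replicates and 17 and 9 in the wild type replicates. Reads thus dropped by 94.8% and 92.3% in the knockout replicates and by 90.4% and 89.3% in the wild type replicates between neighbouring nucleotides. The block at the start of COX1, positions 5333 to 5399, began at nucleotide 6 of the coding region. It had 1470 and 17 calls in the knockout replicates and 1301 and 853 in the wild type replicates, which is 10.3%, 0.530%, 14.9% and 16.1% of the COX1 calls. Knockout replicate 2 alone lacked it almost entirely, and knockout replicate 1 was close to the wild type libraries.

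Such borders were counted over all mRNAs as neighbouring listed cytosines between which reads changed at least 4-fold in the same direction in all 4 libraries, with at least 50 reads summed over the libraries. There were 8, of which 7 were falls in the 5′ to 3′ direction and 1 was a rise. COX1 held 5 of them, ND4L/ND4 2 and ND6 1. The ND6 border lay after position 13722 (nucleotide 349), the most read cytosine of ND6, with 32 and 31 reads in the knockout replicates and 19 and 15 in the wild type replicates. The next listed cytosine, 76 nt further, had 1 and 0 reads in the knockout replicates and 0 and 0 in the wild type replicates. The ND1 block, positions 3328 to 3386, reached 30 and 6 reads at its most read cytosine in the knockout replicates and 15 and 8 in the wild type replicates. The CYTB block, positions 14429 to 14467, reached 38 and 5 reads in the knockout replicates and 11 and 8 in the wild type replicates. The opposite strand had 0 reads over 8 of the 10 blocks. The exceptions were in COX1. The block from 5926 to 6073 had 1.81 and 7.69 opposite-strand reads per cytosine in the knockout replicates and 1.92 and 0.692 in the wild type replicates. That from 6206 to 6253 had 1 opposite-strand read per cytosine in each wild type library (9 calls over 9 cytosines). It had 0 in the knockout libraries, and a depth of 1 against 0 is too low to separate the genotypes. The counting rule for borders was set after the coverage was seen, and all 4 libraries share 1 protocol.

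**Figure D2:**
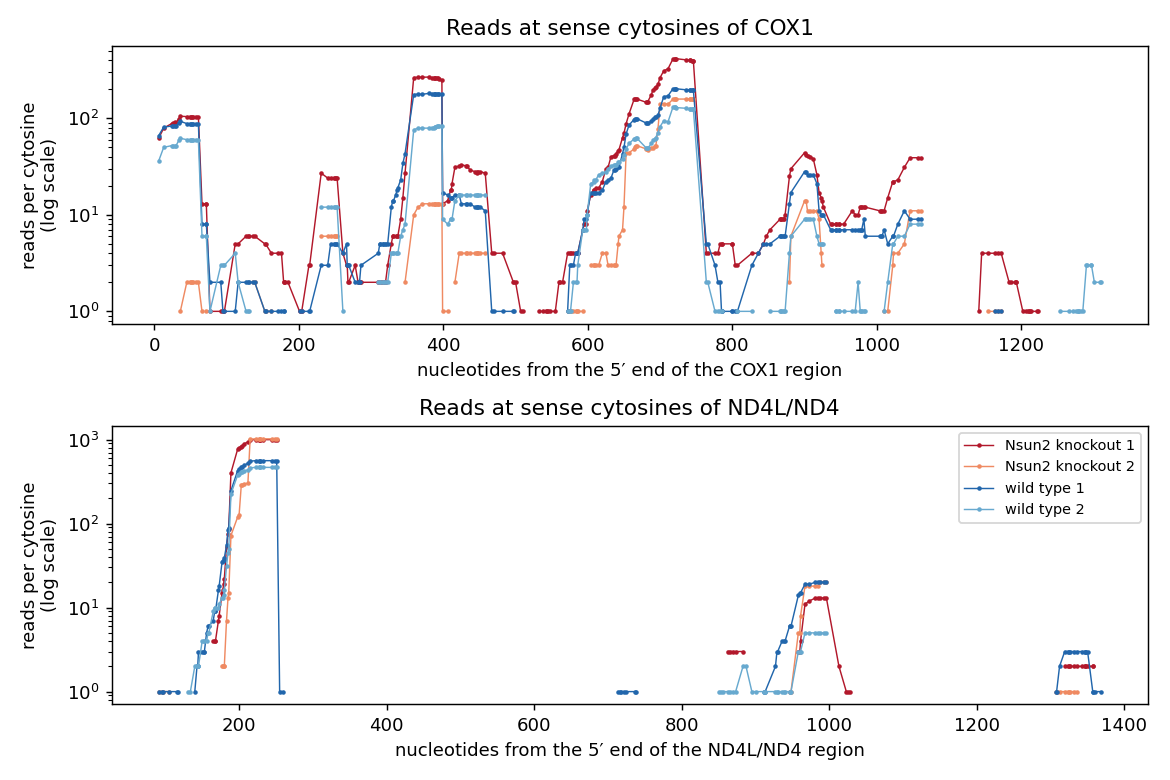
Reads at each listed sense cytosine (log scale, positions with 0 reads not drawn) against the distance from the 5′ end of COX1 and of ND4L/ND4, 1 line per library. The steep falls after 6073 in COX1 and after 10127 in ND4L coincide in the 4 libraries, and ND4L/ND4 reaches 998 and 1020 reads in the knockout libraries and 561 and 467 in the wild type libraries.

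Along the genes, each region was divided into 3 equal segments along its own strand. In COX1 the 5′ segment averaged 48.2 and 2.37 reads per cytosine in the knockout replicates and 35.5 and 19.7 in the wild type replicates. The 3′ segment of COX1 averaged 1.496 and 0.336 reads in the knockout replicates and 0.328 and 0.456 in the wild type replicates. In ND4L/ND4 the 5′ segment averaged 94.4 and 68.6 reads in the knockout replicates and 55.1 and 45.7 in the wild type replicates, and the 3′ segment 0.170 and 0.0588 in the knockout replicates and 0.268 and 0 in the wild type replicates. The 3′ segment was below the 5′ segment in every library for 3 regions (COX1, ND4L/ND4 and ND5) and above it in every library for 2 (ATP8/ATP6 and ND6). In COX3 the 3′ segment was the deeper in both knockout libraries and in wild type replicate 1, but not in wild type replicate 2. In ND1 the middle segment was the deepest in every library, with 4.37 and 0.590 reads per cytosine in the knockout replicates and 2.73 and 1.54 in the wild type replicates.

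Summed over all mRNAs, the log2 ratio of depth in the 3′ over the 5′ segment was -5.23 and -5.92 in the knockout replicates and -5.02 and -5.91 in the wild type replicates. The means were -5.57 ± 0.490 (SD, n = 2) in the knockout and -5.47 ± 0.635 (SD, n = 2) in wild type, a difference of -0.11 (two-sided exact permutation p = 0.667). The difference was smaller than the spread between replicates, and it was 0.24 without knockout replicate 2. COX1 and ND4L/ND4 held most of the 5′ calls, but the other 9 regions held most of the 3′ calls, with 351 of 564 and 136 of 187 in the knockout replicates and 325 of 407 and 105 of 162 in the wild type replicates. The summed ratio thus sets 5′ depth mostly of the first pair against 3′ depth mostly of the others. Without COX1 and ND4L/ND4 it was -0.43 and 0.47 in the knockout replicates and 0.26 and -0.93 in the wild type replicates, so the other 9 regions had no common slope.

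**Figure D3:**
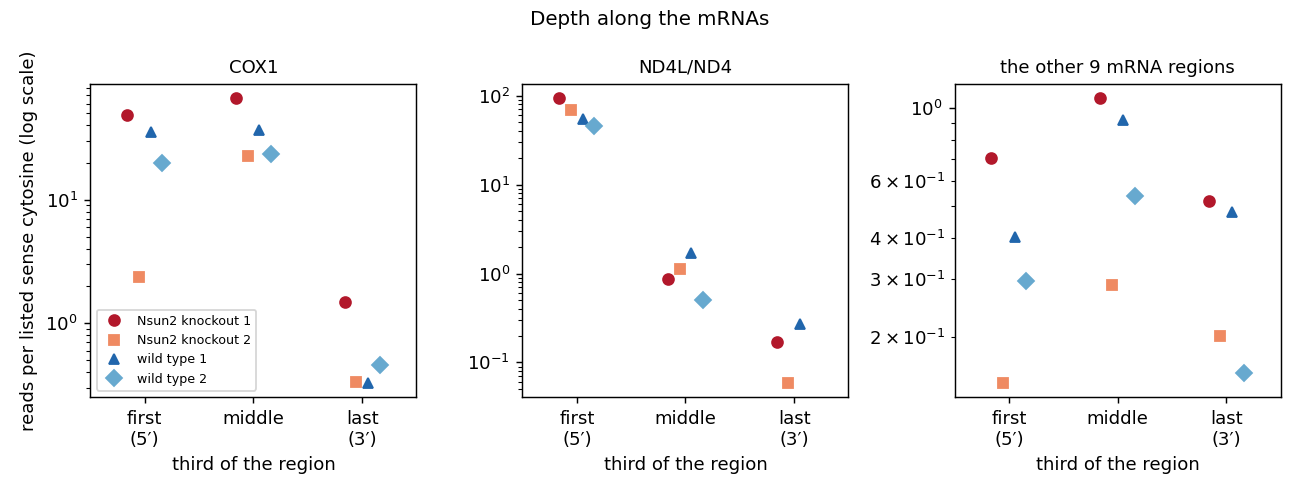
Mean reads per listed sense cytosine (log scale) in the 5′, middle and 3′ segments of COX1, of ND4L/ND4 and of the other 9 mRNA regions summed, 1 point per library. In COX1 and ND4L/ND4 the 3′ segment lies below the 5′ segment in each library; wild type replicate 2 had 0 reads in the 3′ segment of ND4L/ND4 and has no point there.

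The level of unconverted cytosine in mRNAs was near 0.1% of calls. Of the calls at mRNA cytosines, 24 (0.0782%, interval 0.0501% to 0.116%) and 11 (0.0758%, 0.0379% to 0.136%) were unconverted in knockout replicates 1 and 2. In wild type replicates 1 and 2, 49 (0.260%, 0.192% to 0.343%) and 9 (0.0684%, 0.0313% to 0.130%) were unconverted. Wild type replicate 1 was the highest library, and the other 3 lay within 0.0684% to 0.0782%. The mean was 0.0770% ± 0.00168 (SD, n = 2) in the knockout and 0.164% ± 0.135 (SD, n = 2) in wild type. The difference of -0.0871 percentage points (two-sided exact permutation p = 1) was smaller than the wild type spread, and became 0.00861 points without wild type replicate 1 and -0.0859 without knockout replicate 2.

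By region, unconverted calls occurred in 4 of the 11: COX1, ND4L/ND4, CYTB and ATP8/ATP6. COX1 had 9 of 14241 and 3 of 3208 calls unconverted in the knockout replicates (0.0632%, interval 0.0289% to 0.120%, and 0.0935%, 0.0193% to 0.273%). In the wild type replicates it had 27 of 8755 and 4 of 5282 (0.308%, 0.203% to 0.448%, and 0.0757%, 0.0206% to 0.194%). The high value was again that of wild type replicate 1, and knockout replicate 2 and wild type replicate 2 overlapped. ND4L/ND4, read most deeply, had 14 of 14877 and 8 of 10862 calls unconverted in the knockout replicates (0.0941% and 0.0737%) and 6 of 8862 and 5 of 7194 in the wild type replicates (0.0677% and 0.0695%). Both knockout values were above both wild type values there, by 0.0153 points on average, with a two-sided exact permutation p of 0.333. The counting intervals of all 4 overlapped, from 0.0226% to 0.162% in all. COX1 minus ND4L/ND4 averaged 0.0590 ± 0.123 points (SD, n = 4 libraries, exact sign-flip p = 0.625, two-sided, where the smallest possible is 0.125), being negative in knockout replicate 1 and positive in the others.

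The remaining regions were too shallow for levels of this size. In 7 regions (ND1, ND2, COX2, COX3, ND3, ND5 and ND6) 0 of 2297 calls were unconverted over the 4 libraries, which allows a level of up to 0.131%. Region by region the limits were wider: 0 of 467 and 0 of 60 calls in ND1 allow up to 0.642% and 5% in the knockout replicates, and 0 of 261 and 0 of 132 calls up to 1.15% and 2.27% in the wild type replicates. ATP8/ATP6 had 0 of 104 and 0 of 29 calls unconverted in the knockout replicates, and 1 of 146 and 0 of 80 in the wild type replicates. CYTB had 1 of 538 and 0 of 106 calls unconverted in the knockout replicates, and 15 of 352 and 0 of 267 in the wild type replicates. The CYTB value of wild type replicate 1, 4.26% (interval 2.40% to 6.93%), came from a single run described with the other runs. By complex, complex I had 0.0899% and 0.0726% unconverted in the knockout replicates and 0.0646% and 0.0674% in the wild type replicates, and complex IV 0.0622% and 0.0895% in the knockout replicates and 0.298% and 0.0742% in the wild type replicates.

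**Figure D4:**
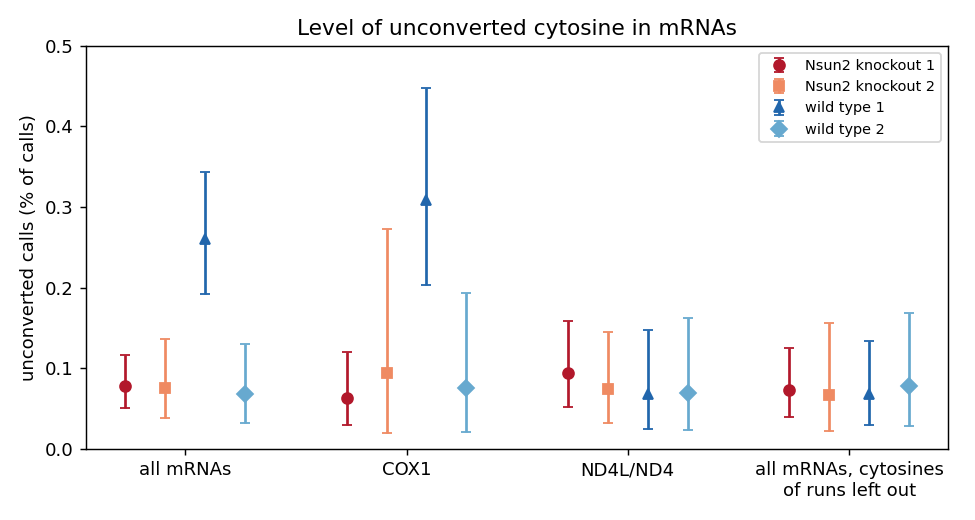
Unconverted calls as a percentage of calls, with exact 95% intervals, for all mRNA cytosines, COX1, ND4L/ND4, and all mRNA cytosines outside runs of unconverted calls, 1 point per library. Wild type replicate 1 stands above the other libraries for all mRNAs (0.260%) and COX1 (0.308%), but not for ND4L/ND4 (0.0677%) or once the cytosines of runs are left out (0.0680%).

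No single mRNA cytosine was called. Of the 175 mRNA cytosines that reached 10 summed reads in both genotypes (120 in COX1, 31 in ND4L/ND4, 15 in ND1, 8 in CYTB and 1 in ND6), 0 were lower and 0 higher in the knockout with edgeR's quasi-likelihood test, where calls required 10 or more percentage points between the group means besides an adjusted p below 0.05. Of all 482 cytosines tested, 0.622% were called lower and 0% higher. No tested mRNA cytosine had a level above 2.25% in any library, so none of the 175 could reach a difference of 10 points. Without the threshold on the difference the mRNA count was also 0, at a lowest adjusted p of 1, against 5 of all 482 lower and 0 higher. Of the 175, 2 had an unadjusted edgeR p under 0.05, COX1 6010 and 6015, whose adjusted p was 1 in both cases. A Fisher test of the summed reads of each genotype called 0 of the 175, against 3 of all 482 lower and 0 higher. That test treats reads as replicates and does not measure the spread between libraries. The count with limma was 0 of the 175 and 1 of all 482. On simulated data limma recovered no changed cytosine, so its 0 cannot decide whether an mRNA cytosine changed. The other 2675 mRNA cytosines, among them all those of 6 regions, had too few reads to be tested.

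Most of the tested cytosines showed no unconverted read at all. Among the 175, 131 had 0 unconverted reads in all 4 libraries, and the median level was 0 in each library. The highest level at any of them was 0.962% and 0.633% in knockout replicates 1 and 2, and 2.25% and 2.04% in wild type replicates 1 and 2. The 5 with the highest mean over the libraries were all in COX1. Position 6010 had 0 of 149 and 0 of 47 reads unconverted in the knockout replicates and 2 of 89 and 1 of 49 in the wild type replicates. Position 6015 had 0 of 176 and 0 of 49 in the knockout replicates and 2 of 93 and 1 of 55 in the wild type replicates. At both positions each wild type library had an unconverted read and neither knockout library did, and for the summed knockout reads 0 of 196 and 0 of 225 allow levels of up to 1.53% and 1.33%. Position 6008, nearby, had 0 of 146 and 0 of 48 in the knockout replicates and 1 of 89 and 1 of 49 in the wild type replicates. The remaining 2, at the start of the gene, had unconverted reads in different libraries. Position 5379 had 1 of 104 and 0 of 2 reads unconverted in the knockout replicates and 0 of 87 and 1 of 60 in the wild type replicates. Position 5340 had 0 of 79 and no read in the knockout replicates and 1 of 81 and 0 of 50 in the wild type replicates. These 5 were picked by level, and the reverse pattern also occurred. At COX1 6063 and ND4L 10079 and 10083, each knockout library had an unconverted read and neither wild type library did. Their mean knockout levels were 0.441%, 0.235% and 0.227%. At ND4L 10074 each wild type library had one and neither knockout library did, with a mean wild type level of 0.251%. The pattern thus ran both ways.

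Depth made ND4L the region where a low level could best be bounded. At position 10099, 0 of 998 and 0 of 1020 reads were unconverted in the knockout replicates, which allows up to 0.301% and 0.294%, and 0 of 561 (up to 0.535%) and 1 of 466 (0.215%) in the wild type replicates. The most read cytosine of each shallow mRNA had no unconverted read, but few reads. CYTB 14442 had 0 of 38 and 0 of 5 in the knockout replicates and 0 of 11 and 0 of 8 in the wild type replicates. COX2 7415 had 0 of 9 and 0 of 5 in the knockout replicates and 0 of 7 and 0 of 2 in the wild type replicates, and ND5 12218 had 0 of 7 and 0 of 2 in the knockout replicates and 0 of 7 and 0 of 3 in the wild type replicates. Over all mRNAs 63 cytosines had an unconverted read. Of these, 49 had one in 1 library only, 11 in 2 libraries, 3 in 3 libraries and 0 in all 4. The 3 were ND4L positions 10103, 10104 and 10125, named after their values were seen. Position 10103 had 2 of 996 and 1 of 1020 reads unconverted in the knockout replicates and 1 of 561 and 0 of 467 in the wild type replicates. Position 10104 had 1 of 997 and 1 of 1020 in the knockout replicates and 0 of 561 and 3 of 467 in the wild type replicates. Position 10125 had 2 of 996 and 1 of 1019 in the knockout replicates and 1 of 560 and 0 of 465 in the wild type replicates. All 3 lie in the deepest block, and at none did the genotypes separate.

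Some unconverted calls stood next to each other in runs, and most of those calls were in wild type replicate 1. A run was at least 3 successive sense cytosines with reads in 1 mRNA, each with at least 1 unconverted read in that library and neighbours at most 25 nt apart. There were 1 and 1 runs in knockout replicates 1 and 2, and 2 and 0 in wild type replicates 1 and 2 (two-sided exact permutation p = 1). Runs held 8 of 24 unconverted calls (33.3%) and 4 of 11 (36.4%) in the knockout replicates, and 38 of 49 (77.6%) and 0 of 9 in the wild type replicates. The table gives counts per position and not per read, so whether the calls of a run came from 1 molecule was not tested.

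The longest run was in COX1 in wild type replicate 1. It covered 19 successive cytosines from position 5991 to 6049 (59 nt), of which 15 had 1 unconverted read and 4 had 2, out of 89 to 203 reads each. The flanking cytosines 5984 and 6063 had 0 of 85 and 0 of 197 reads unconverted. At the 19 cytosines together, 1 of 4644 (0.0215%) and 0 of 1677 calls (up to 0.179%) were unconverted in the knockout replicates, and 23 of 2440 (0.943%) and 3 of 1493 (0.201%) in the wild type replicates. The span of this COX1 run includes positions 6008, 6010 and 6015, so the highest level of wild type replicate 1 among the 175 tested cytosines was within it. In the knockout replicates the runs were in ND4L. Knockout replicate 1 had 6 successive cytosines with unconverted reads between 10076 and 10091, at 8 of 5279 calls (0.152%), and knockout replicate 2 had 3 between 10121 and 10127, at 4 of 3056 (0.131%).

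The run in CYTB in wild type replicate 1 was of another kind, because each of its cytosines had 1 read. From position 14620 to 14673 (nucleotides 476 to 529 of CYTB) all 15 listed sense cytosines had 1 read and that read was unconverted. The cytosines on either side, 14617 and 14678, also had 1 read each, and both were converted. Knockout replicate 1 had 11 calls at these cytosines and wild type replicate 2 had 3, all converted, and knockout replicate 2 had no read there. This run supplied all 15 of the unconverted CYTB calls of wild type replicate 1.

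Leaving out the 43 cytosines that belonged to a run in any library brought the libraries together. The level was then 0.0732% (13 of 17761 calls) and 0.0670% (5 of 7464) in the knockout replicates, and 0.0680% (8 of 11759) and 0.0776% (6 of 7736) in the wild type replicates. The means were 0.0701% ± 0.00439 (SD, n = 2) in the knockout and 0.0728% ± 0.00674 (SD, n = 2) in wild type, a difference of -0.00271 points (two-sided exact permutation p = 0.667). Runs were defined by unconverted calls, so leaving them out favours lower levels by construction in libraries with runs, most where runs hold most calls. The level fell in the libraries with a run and rose from 0.0684% to 0.0776% in wild type replicate 2, which had none.

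**Figure D5:**
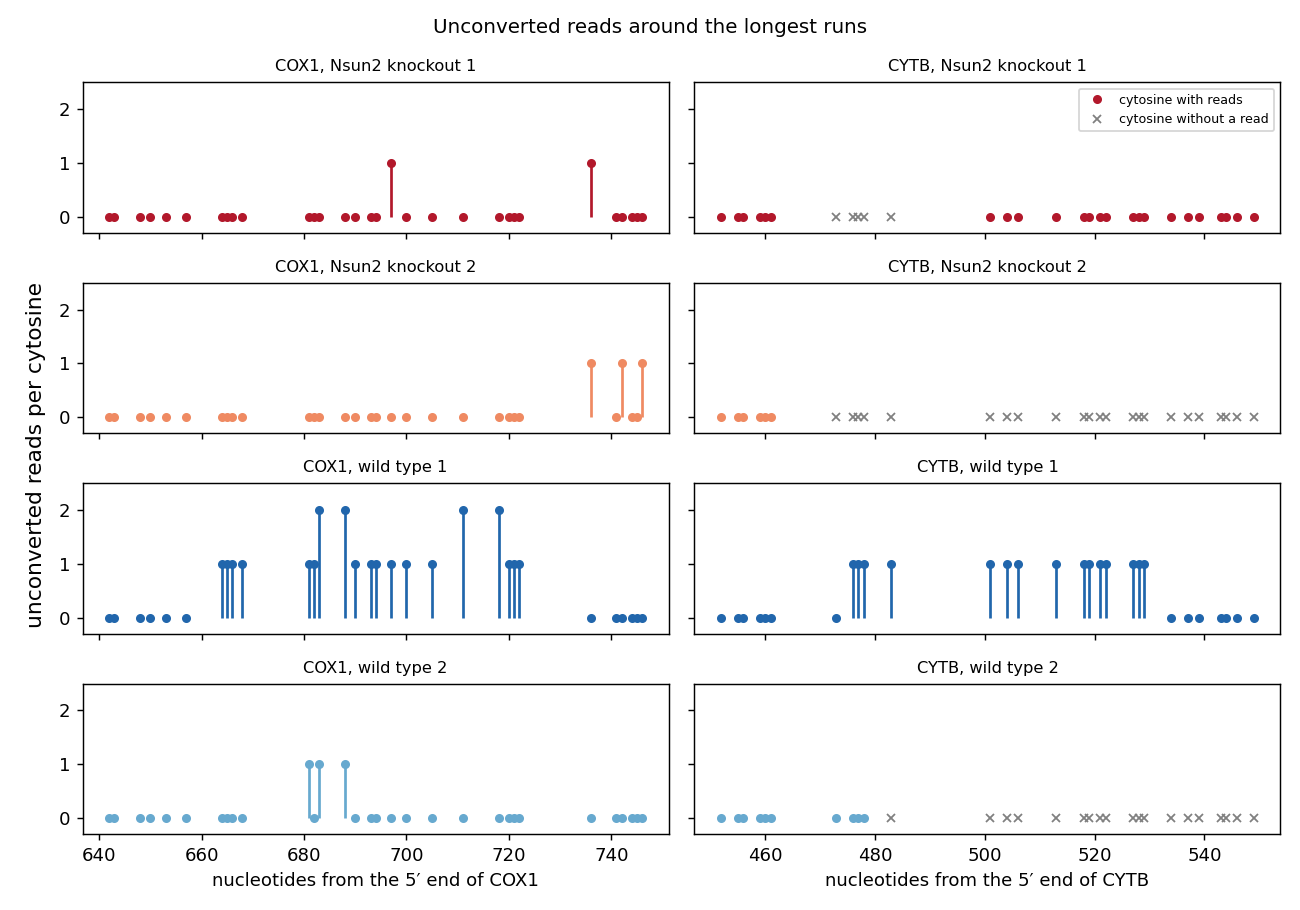
Unconverted reads at each listed sense cytosine around the longest COX1 run (left) and the CYTB run (right), against the distance from the 5′ end of the coding region, 1 row per library with the knockout libraries above the wild type libraries; crosses mark cytosines without a read. Only wild type replicate 1 has the unbroken rows of 19 and 15 cytosines.

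Base context and codon position were read from the table itself, where a minus-strand cytosine at the next position marks a C followed by G. Of the mRNA cytosines, 193 (6.77%) stood before G, and these took 11.3% and 10.7% of the mRNA calls in the knockout replicates and 10.9% and 12.2% in the wild type replicates. Unconverted calls there numbered 1 of 3456 and 3 of 1556 in the knockout replicates and 7 of 2059 and 1 of 1602 in the wild type replicates. The corresponding levels, 0.0289% and 0.193% in the knockout replicates and 0.340% and 0.0624% in the wild type replicates, overlapped between genotypes and had intervals that included the level of all mRNA cytosines in the same library. Cytosines at codon base 3 had 8 of 10332 and 3 of 4119 calls unconverted in the knockout replicates and 20 of 6352 and 5 of 4530 in the wild type replicates. No context or codon position stood above the others in all 4 libraries.

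Set against other RNA in the same libraries, the mRNA level was below that of minus-strand RNA in each library. The large ribosomal RNA had too few calls for a comparison at these levels. Sense cytosines of the large ribosomal RNA (mt-Rnr2) had 0 of 1115 and 2 of 810 calls unconverted in the knockout replicates and 0 of 1058 and 1 of 640 in the wild type replicates. The counts of 0 allow up to 0.269% in knockout replicate 1 and 0.284% in wild type replicate 1. Both limits are above the mRNA level of the same library, so the comparison cannot decide whether the levels differ. The mRNA minus mt-Rnr2 difference averaged 0.0198 ± 0.191 points (SD, n = 4 libraries, exact sign-flip p = 0.875, two-sided). Minus-strand cytosines outside the genes encoded there had levels of 0.151% and 0.188% in the knockout replicates and 0.405% and 0.374% in the wild type replicates. The mRNA level was lower than this in 4 of 4 libraries with a mean difference of -0.159 ± 0.102 (SD, n = 4, exact sign-flip p = 0.125, two-sided, the smallest possible).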

How the data were processed

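Liver RNA enriched for mitochondria had been through removal of ribosomal RNA, DNase, bisulfite and a small RNA library kit, per the labels' protocols. The submitters' processing notes name Trim Galore, Bismark and the build GRCh38, a human one although the samples are mouse, with tool versions not given there. The deposited values are raw counts of m5C and C reads per position and library, per the file headers. Positions are printed as deposited.

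Regions were named from NCBI's GRCm38.p6 annotation. As a check of the numbering, the start codon pattern of 8 genes with ATG was found for 8 without a shift and for at most 1 with any shift up to 12 nt. The 27 positions without a strand were left out.

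Cytosines with 10 or more reads per genotype were tested over the whole table with edgeR 4.0.16 (glmQLFit and glmQLFTest, with terms for library, methylation state and genotype by state, and no replicate block). Summed sense calls per gene were tested with TMM scaling for genes with 10 calls in 2 libraries. Both were run in R 4.3.3 with Benjamini-Hochberg adjustment and were tried on simulated data, in which limma recovered no changed cytosine. The simulated level changes were far larger than any level of the tested mRNA cytosines. The trial therefore cannot show what edgeR would detect at those low levels. Library values were compared by exact permutation (scipy 1.17.1). Alternatives were Fisher's exact test, limma 3.58.1, DESeq2 1.42.0, the replicate block, other depth minimums, other run and segment rules and leaving out each library. Named cytosines were the most read of each mRNA, the 5 with the highest mean level and the ends of runs of 5 or more. The definitions of blocks and borders were set after the coverage was seen. Members, lists and depth rule were chosen with earlier results of these data known.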

Additional observations from a re-analysis of the deposited data

How the results depend on the processing

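The counts of mRNA cytosines lower or higher in the knockout were 0 under all 11 alternatives run for each. For the 175 tested cytosines the threshold of 10 points fixes this by construction, since no level was above 2.25%, and without that threshold the lowest adjusted p (edgeR) was 1. The counts of mRNAs with higher or lower coverage were 0 in each alternative that kept all 4 libraries. With a library left out, 1 library stood for its genotype, and the log2 fold change of ND6 was 2.10 without knockout replicate 1. The knockout minus wild type level difference, -0.0871 points, was -0.0615 as a mean over tested cytosines, -0.0451 pooled over them and -0.00271 without runs. It was -0.0511 over COX1 and ND4L/ND4 alone (chosen after seeing the data), and -0.183 to 0.00861 without single libraries (0.00861 without wild type replicate 1). As a mean over tested cytosines the genotypes did not overlap (two-sided exact permutation p = 0.333, the least possible). In the other measures that kept every library they overlapped. The difference in the log2 ratio of the 3′ over the 5′ segment, -0.11, was -0.21 with 2 equal segments, turned to 0.17 as the median of each mRNA's own ratio and to 0.36 without COX1 and ND4L/ND4 (chosen after seeing the data), and ran from -0.56 to 0.34 without single libraries (0.24 without knockout replicate 2 and 0.34 without wild type replicate 1); the cause was not tested. The difference in the number of runs, 0, was -0.5 with at least 5 cytosines per run and -1 to 1 without single libraries. With a replicate block in edgeR, a pairing no label states, the counts of called mRNA cytosines and mRNAs were 0. Among all features, 2 of 482 cytosines and 1 of 26 genes (the tRNA gene TrnH) were then called lower. With the block, 1 mRNA had an unadjusted edgeR p under 0.05. Deviations of same-numbered libraries correlated at 0.59 over 26 genes, with only 2 pairs. Depth left 2675 of 2850 cytosines untested, and 2 libraries per genotype allow no permutation p below 0.333.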
